A study of Mus musculus with 16 samples.

Results

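The proteasome genes were read in primary calvarial osteoblasts, bone-forming cells of the skull vault, after siRNA treatment against Bicc1, which encodes an RNA-binding protein. They were taken as every detected gene whose symbol starts with Psma, Psmb, Psmc, Psmd, Psme, Psmf or Psmg, and 42 of the 9560 genes or unnamed probes tested qualified. The cells came from C57BL6/J neonates aged 3 to 9 days, of mixed gender, were plated at 150000 cells a well and were transfected about a day later with Lipofectamine 2000. RNA was taken 48 hours after transfection with 1 of 3 siRNAs to Bicc1 (BICC1_1, BICC1_2 or BICC1_3) or with a scrambled siRNA (SC), and each group was measured on 4 Illumina bead arrays. Knockdown by siRNA lowers a transcript without removing the gene, and every group, SC included, went through the same lipid transfection. The labels do not say whether the 4 replicates of a group were separate cultures or litters, so a p-value here speaks of the scatter among arrays alone, and that scatter may be technical.

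The proteasome is the barrel-shaped protease that degrades ubiquitin-tagged proteins. Its core particle stacks rings of alpha subunits (Psma genes), which gate the barrel, on rings of beta subunits (Psmb genes), of which Psmb5, Psmb6 and Psmb7 carry the cutting sites. A regulatory cap, built from a base with a ring of ATPases (Psmc genes) and a lid (Psmd genes), binds the tagged protein, removes the ubiquitin and threads the chain into the core. Interferon induces an immunoproteasome in which Psmb8, Psmb9 and Psmb10 replace the cutting subunits, and Psme1 and Psme2 form an alternative activator of the core. In osteoblasts the proteasome is known for turning over Runx2 and beta-catenin, regulators of bone formation.

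Of 45 genes on the array with such symbols, 42 passed the detection filter, and these 42 were each detected on all 16 arrays. They comprised 12 core subunits (5 alpha and 7 beta), 19 cap genes (6 ATPases, 3 other base subunits, 7 lid subunits and 3 assembly chaperones of the base), 4 immunoproteasome genes, 3 core assembly chaperones (Psmg1, Psmg2 and Psmg3) and 2 other activators (Psme3 and Psme4). The remaining 2, Psmc3ip and Psme3ip1, share the prefix only: Psmc3ip encodes a partner of the meiotic recombinases and Psme3ip1 a protein that binds the Psme3 activator. The probes for Psma1, Psma6 and Psmb8 were detected on no array. Psmb8, the inducible counterpart of Psmb5, read 70.5 to 111.4 in raw intensity, beside array medians of 84.8 to 111.3, so it has no measured difference here. Psma1 read 52.2 to 73.8 and Psma6 46.8 to 71.5. Both encode constitutive alpha subunits, and a probe that was not detected does not show that the gene is silent. No probe was paired with Psma8, Psmb11, Psmd3, Psmf1 or Psmg4, which are not analysed here.

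Facts of the whole series that bear on these genes are few. Each array detected 11990 to 12863 probes. Bicc1 stood at 53.7% of SC with BICC1_1 (adjusted p = 0.0345 in limma, but 0.0507 to 0.224 in 12 of the alternatives) and at 33.3% with BICC1_2 (adjusted p = 7.98e-06). With BICC1_3 it was 93.3% of SC (95% interval 77.1 to 113, adjusted p = 0.776), so a direction drawn from these arrays comes from cells with no measured fall of Bicc1. The mean of the 3 siRNAs against SC, given below, takes in these arrays, so it is not a mean over cells with lowered Bicc1 alone. The label names the siRNA only, and a failed siRNA and mixed labels cannot be told apart here. Replicate 1 of the arrays labelled BICC1_3 stood apart from the other 15 arrays, and BICC1_1 replicate 3 and BICC1_2 replicate 3 did so to a lesser degree. On these 3 arrays the median log2 difference of 34 NADH dehydrogenase genes from their SC means was -1.44, -0.74 and -0.22, where the other 13 arrays spanned -0.03 to 0.06. Of 14 osteoblast markers, 8 were detected, and the late markers Bglap, Ibsp and Dmp1, as well as Postn, were on the array but not detected. Of 21 macrophage markers 17 were detected, with a summed level of 9857 to 14762 in BICC1_1, 8199 to 10024 in BICC1_2, 10004 to 10745 on the arrays labelled BICC1_3 and 8762 to 10371 in SC (linear intensity), while Ptprc and Itgam were not detected. In such bulk RNA, fewer cells of a type and less RNA per cell cannot be told apart.

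No proteasome gene passed the test in any of the comparisons. In limma, 0 of 42 had an adjusted p under 0.05 with BICC1_1 against SC (background 0.0209% of all genes tested), with BICC1_2 (0.0523%), on the arrays labelled BICC1_3 (0.0105%) and for the mean of the 3 siRNAs (0.0105%). Between siRNAs, 0 of 42 passed for BICC1_1 against BICC1_2 (0.282%), BICC1_1 against BICC1_3 (0.0732%) and BICC1_2 against BICC1_3 (0.115%). With so few calls anywhere in the series, a count of 0 among 42 genes does not set them apart from the rest. Without replicate 1 of BICC1_3 the count was again 0 in the 4 comparisons with SC (background 0.0314%, 0.0941%, 0.0105% and 0.0105%). At an unadjusted p under 0.05 the counts against SC were 0 with BICC1_1 (background 6.16%), 0 with BICC1_2 (5.24%), 2 on the arrays labelled BICC1_3 (9.24%) and 1 for the mean (6.69%). Between siRNAs they were 0 (6.38%), 1 (6.09%) and 2 (8.28%). The lowest adjusted p of a member against SC was 0.863, 1.00, 0.414 and 0.736 in these 4 comparisons in limma.

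The size of change that the arrays leave room for was narrow for most members. The 95% interval lay wholly within 0.5 log2 of SC for 39 of 42 members with BICC1_1, 39 with BICC1_2, 32 on the arrays labelled BICC1_3 and 41 for the mean. Over all genes tested the shares were 86.3%, 88.7%, 82.1% and 93.2%. Without replicate 1 of the arrays labelled BICC1_3 the counts were 41, 41, 40 and 42. The median standard error of a member's difference was 0.10 log2, against 0.11 over all genes. The plot of differences by siRNA shows the intervals one by one.

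**Figure D1:**
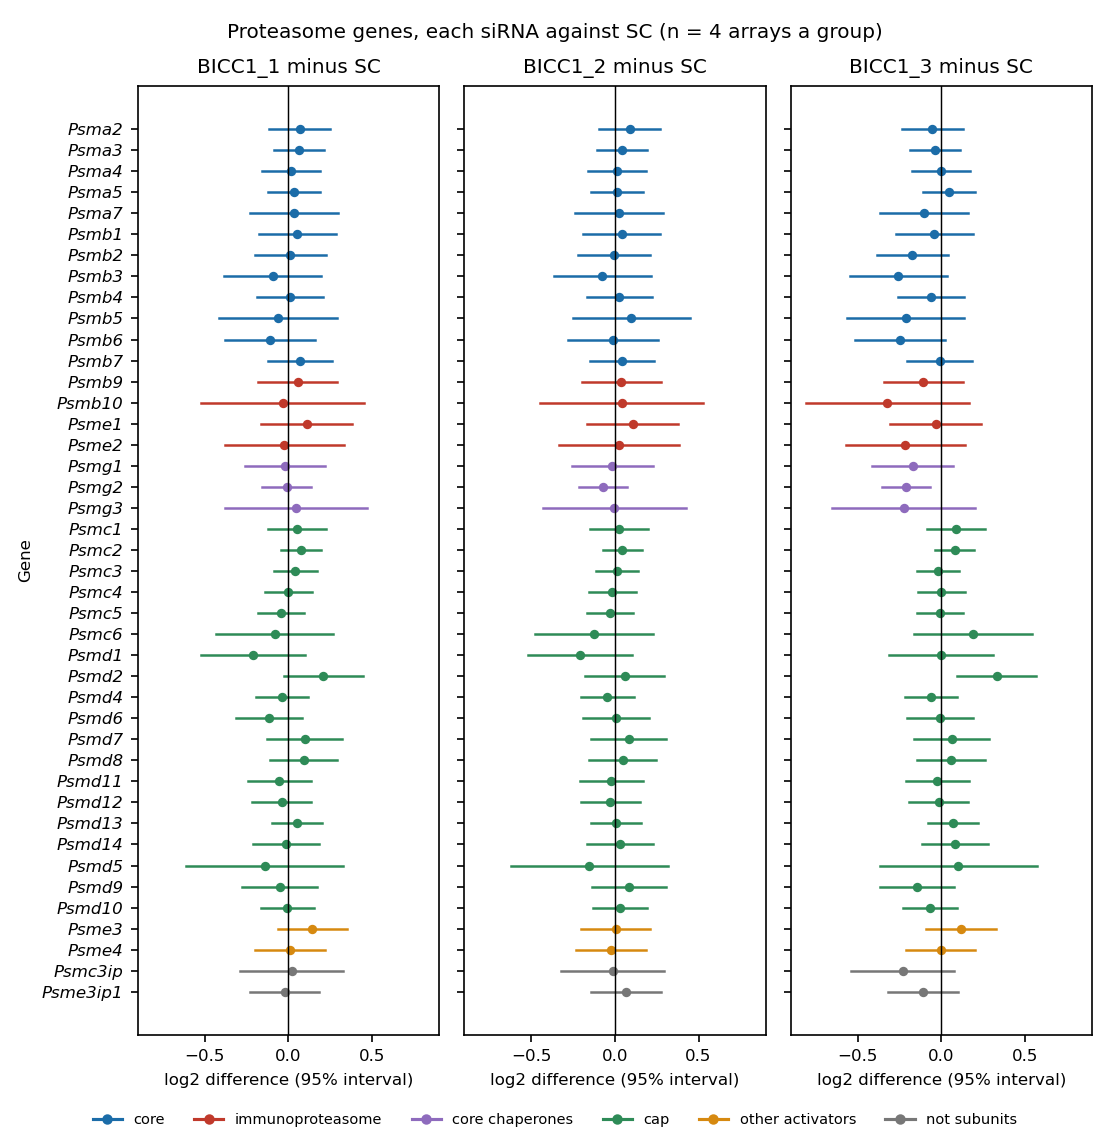
Log2 difference from SC of the 42 detected proteasome genes (rows, by class) for BICC1_1, BICC1_2 and BICC1_3, each from 4 arrays a group; points are limma estimates and bars are 95% intervals. The intervals of BICC1_1 and BICC1_2 all include 0, and with BICC1_3 only those of Psmg2 and Psmd2 do not, at adjusted p = 0.414 for both.

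By class, the medians lay close to 0 with BICC1_1 and BICC1_2. With BICC1_1 the median difference from SC was 0.02 log2 for the core, -0.02 for the cap and 0.02 for the immunoproteasome genes, and with BICC1_2 it was 0.03, 0.01 and 0.04, beside 0.00 for all genes in both. On the arrays labelled BICC1_3 it was -0.06, 0.00 and -0.16, beside -0.01 for all genes. Members below SC numbered 20 with BICC1_1 (47.6%, background 49.4%), 16 with BICC1_2 (38.1%, background 48.6%), 31 on the arrays labelled BICC1_3 (73.8%, background 52.0%) and 26 for the mean (61.9%, background 50.6%). The 31 were 11 of 12 in the core, 4 of 4 in the immunoproteasome, 10 of 19 in the cap and 6 of the other 7. Replicate 1 decides these values: without it the medians were 0.03 for the core, 0.01 for the cap and 0.01 for the immunoproteasome genes. For the mean of the 3 siRNAs the medians were 0.00, -0.01 and -0.04.

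In the cutting subunits every siRNA group overlapped SC. Psmb5, which cuts after hydrophobic residues, had log2 intensities of 10.93, 11.06, 10.71 and 10.97 with BICC1_1, of 11.19, 11.02, 11.09 and 11.01 with BICC1_2, of 10.07, 10.99, 10.91 and 11.10 on the arrays labelled BICC1_3, and of 10.89, 10.88, 11.06 and 11.09 in SC. Apart from the first array labelled BICC1_3, at 10.07, the lowest reading was 10.71 on BICC1_1 replicate 3 and the highest 11.19 on BICC1_2 replicate 1. The mean of the 3 siRNAs differed from SC by -0.06 (SE 0.14, adjusted p = 0.934 in limma). Psmb6, which cuts after acidic residues, read 12.49, 12.48, 12.44 and 12.57 with BICC1_1, 12.53, 12.56, 12.77 and 12.52 with BICC1_2, 11.83, 12.52, 12.50 and 12.59 on the arrays labelled BICC1_3, and 12.56, 12.61, 12.63 and 12.62 in SC. Its lowest value was again on that array, and each group overlapped SC. Its difference was -0.11 with BICC1_1, -0.01 with BICC1_2 and -0.25 on the arrays labelled BICC1_3 (adjusted p = 0.968, 1.00 and 0.563), and the last was -0.07 without replicate 1.

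Psmb7, which cuts after basic residues, read 12.67, 12.73, 13.07 and 12.67 with BICC1_1, 12.67, 12.74, 12.90 and 12.71 with BICC1_2, 12.59, 12.79, 12.62 and 12.79 on the arrays labelled BICC1_3, and 12.77, 12.66, 12.71 and 12.70 in SC. The high readings came from the third replicates of BICC1_1 and BICC1_2, and the groups overlapped. The mean of the 3 siRNAs differed from SC by 0.03 (SE 0.07, adjusted p = 0.933). Psmb7 has 3 detected probes, which gave 0.03, -0.00418 and -0.06 for that mean and so do not share a sign.

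Promoter sequence is printed for a few members as examples, each of which holds a match to a motif searched for. They were not picked by rank and do not stand for the other members: Psmg2, Psmb10, Psmg3 and Psmd5, named below for their values, are not shown. The windows run from 250 bases before to 50 bases after the start of transcription in RefSeq (GRCm38.p6), written 5′ to 3′ on the gene's strand, and were found for 36 of the 42 members. Psmb5 (chr14:54617946-54618245, minus strand) and Psmb6 (chr11:70525107-70525406, plus strand) are constitutive cutting subunits, and the capitals mark TGACNNNGC, the core of the antioxidant response element that Nfe2l1 and Nfe2l2 recognise. Psme1 (chr14:55578244-55578543, plus strand) is an immunoproteasome gene, and the capitals mark, on the reverse strand, the interferon-stimulated response element (GAAA, any 2 bases, GAAA). Psmd2 (chr16:20651402-20651701, plus strand) had the highest difference from SC of any member, and the capitals mark TTCNNNGAA, the gamma-activated site.
Psmb5: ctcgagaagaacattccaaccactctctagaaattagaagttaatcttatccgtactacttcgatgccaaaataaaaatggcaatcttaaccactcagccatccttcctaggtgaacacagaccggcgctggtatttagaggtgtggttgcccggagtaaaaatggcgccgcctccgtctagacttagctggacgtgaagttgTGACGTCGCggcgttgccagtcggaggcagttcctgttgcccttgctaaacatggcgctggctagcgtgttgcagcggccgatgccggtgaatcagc
Psmb6: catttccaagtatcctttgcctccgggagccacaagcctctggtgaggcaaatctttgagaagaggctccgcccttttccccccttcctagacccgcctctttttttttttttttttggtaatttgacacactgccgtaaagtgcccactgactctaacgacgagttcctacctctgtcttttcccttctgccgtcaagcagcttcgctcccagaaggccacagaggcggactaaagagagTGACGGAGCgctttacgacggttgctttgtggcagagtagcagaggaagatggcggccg
Psme1: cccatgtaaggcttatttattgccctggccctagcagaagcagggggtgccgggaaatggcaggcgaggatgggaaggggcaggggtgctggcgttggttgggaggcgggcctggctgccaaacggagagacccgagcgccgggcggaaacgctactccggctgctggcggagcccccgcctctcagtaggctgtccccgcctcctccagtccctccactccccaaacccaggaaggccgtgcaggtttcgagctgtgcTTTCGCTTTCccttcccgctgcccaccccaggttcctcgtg
Psmd2: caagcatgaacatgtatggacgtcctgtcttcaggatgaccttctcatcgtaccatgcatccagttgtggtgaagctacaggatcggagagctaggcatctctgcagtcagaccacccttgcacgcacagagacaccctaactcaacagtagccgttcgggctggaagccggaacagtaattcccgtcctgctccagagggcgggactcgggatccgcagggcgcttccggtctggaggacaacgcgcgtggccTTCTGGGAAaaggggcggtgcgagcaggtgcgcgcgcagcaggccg

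Counting the first transcribed base as position 1, the match begins 47 bases before the start in Psmb5, 9 bases before it in Psmb6, at position 10 in Psme1 and at position 5 in Psmd2. Searched on both strands, TGACNNNGC was in the windows of 6 members (Psmb5, Psmb6, Psmc6, Psmd9, Psmd12 and Psme4), 16.7% of the 36, against 14.0% of 27025 genes with a window (12.4% of all 32851 windows). The interferon-stimulated response element was in 4 (Psmb3, Psmd4, Psmd9 and Psme1), 11.1% against 3.99% of genes (3.44% of windows). TTCNNNGAA was in 2 (Psmd2 and Psmg1), 5.56% against 9.55% of genes (8.30% of windows), and CCAAT was in 13, 36.1% against 41.1% (37.4%). A match in a window is a description of its letters, and nothing on binding follows from it or from its lack.

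No immunoproteasome gene passed the test in any comparison. Psmb9, the inducible counterpart of Psmb6, read 6.21, 6.24, 6.24 and 6.22 with BICC1_1, 6.03, 6.26, 6.43 and 6.11 with BICC1_2, 5.76, 6.13, 6.17 and 6.21 on the arrays labelled BICC1_3, and 6.00, 6.42, 6.10 and 6.17 in SC. The BICC1_1 arrays sat close together, above all 4 arrays labelled BICC1_3 (background 1.65% of genes higher without overlap) but inside the SC range. The difference between those siRNAs was 0.16 (SE 0.11, adjusted p = 0.897 in limma) and was 0.06 without replicate 1 of the arrays labelled BICC1_3. Psmb10, the inducible counterpart of Psmb7, read 10.02, 9.98, 9.24 and 10.01 with BICC1_1, 10.06, 10.00, 9.67 and 9.83 with BICC1_2, 8.66, 9.91, 9.89 and 9.63 on the arrays labelled BICC1_3, and 9.96, 9.86, 9.85 and 9.72 in SC. Below every SC array were the third replicates of BICC1_1 and BICC1_2 and replicates 1 and 4 of the arrays labelled BICC1_3, and the other arrays of each group read within the SC range or above it. The difference from SC on the arrays labelled BICC1_3 was -0.32 (SE 0.23, adjusted p = 0.626), and -0.04 without replicate 1.

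Psme1, the alpha subunit of the interferon-induced activator, read 10.95, 10.94, 10.72 and 11.005 with BICC1_1, 11.06, 10.89, 10.83 and 10.83 with BICC1_2, 10.25, 11.01, 10.90 and 10.88 on the arrays labelled BICC1_3, and 10.84, 10.83, 10.73 and 10.78 in SC. Above the SC range were 3 arrays with BICC1_1, 2 with BICC1_2 and 3 labelled BICC1_3. The remaining array of BICC1_1 (10.72) and that of BICC1_3 (10.25) read below every SC array, and the other 2 of BICC1_2 read within the SC range. The mean of the 3 siRNAs differed from SC by 0.06 (SE 0.10, adjusted p = 0.916), or by 0.12 (adjusted p = 0.667) once replicate 1 of BICC1_3 was left out. Psme2, the beta subunit of the same activator, read 8.91, 8.94, 8.69 and 8.80 with BICC1_1, 8.93, 8.81, 8.94 and 8.85 with BICC1_2, 7.90, 8.98, 8.82 and 8.87 on the arrays labelled BICC1_3, and 8.92, 8.81, 8.91 and 8.79 in SC. Leaving aside that low reading of 7.90, the lowest was 8.69 on BICC1_1 replicate 3, and every siRNA group overlapped SC. Psme1 and Psme2 lie with only Emc9 between them on chromosome 14, and Psmb9, Tap1, Psmb8 and Tap2 follow each other on chromosome 17.

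**Figure D2:**
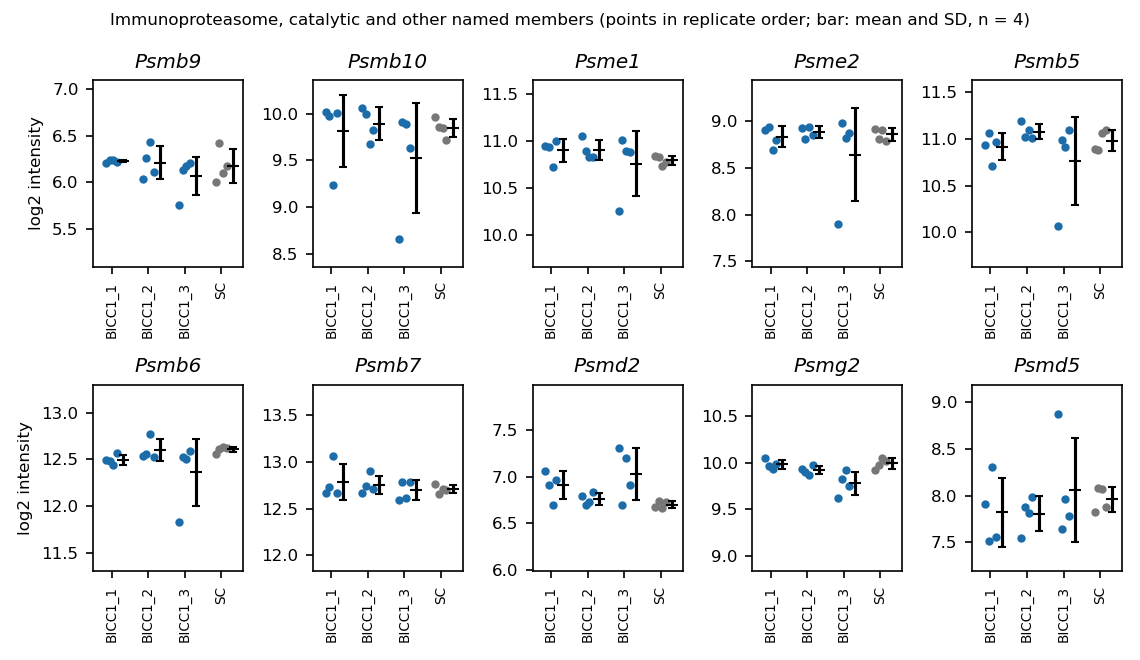
Log2 intensity of 10 members on the 4 arrays of each group (points in replicate order, siRNA groups in blue and SC in grey), with the mean and SD of the group beside them. In 8 of the panels (Psmb5, Psmb6, Psmb7, Psmb9, Psmb10, Psme1, Psme2 and Psmg2) the lowest point is replicate 1 of BICC1_3, and in Psmd2 and Psmd5 that array is the highest.

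In the cap, the lowest unadjusted p against SC was that of Psmd2, a scaffold subunit of the base. It read 7.06, 6.91, 6.70 and 6.96 with BICC1_1, 6.79, 6.69, 6.73 and 6.83 with BICC1_2, 7.31, 6.70, 7.20 and 6.91 on the arrays labelled BICC1_3, and 6.67, 6.74, 6.66 and 6.73 in SC. Most arrays with BICC1_1 and BICC1_3 read above every SC array, but in each siRNA group at least 1 array read within the SC range. The difference from SC was 0.21 with BICC1_1 (SE 0.11, adjusted p = 0.863), 0.06 with BICC1_2 (adjusted p = 1.00), 0.33 on the arrays labelled BICC1_3 (adjusted p = 0.414) and 0.20 for the mean (adjusted p = 0.736). Bicc1 was lowest with BICC1_2, and a relation of Psmd2 to the level of Bicc1 was not tested. A second Psmd2 probe, detected on 4 arrays, gave -0.06, -0.05, 0.05 and -0.02 in the same comparisons.

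Psmd1, the other large scaffold of the base, read 9.06, 9.16, 8.38 and 8.87 with BICC1_1, 8.97, 8.99, 8.58 and 8.93 with BICC1_2, 8.82, 9.08, 9.15 and 9.26 on the arrays labelled BICC1_3, and 9.06, 8.96, 9.20 and 9.10 in SC. The lowest readings were the third replicates of BICC1_1 and BICC1_2. The differences of -0.21 with BICC1_1 and -0.21 with BICC1_2 did not pass (adjusted p = 0.926 and 1.00). Psmd14, the lid enzyme that removes ubiquitin, read 10.46, 10.71, 10.85 and 10.71 with BICC1_1, 10.57, 10.66, 10.87 and 10.80 with BICC1_2, 10.68, 10.79, 10.69 and 10.96 on the arrays labelled BICC1_3, and 10.67, 10.72, 10.62 and 10.78 in SC. The groups overlapped, and the mean of the 3 siRNAs differed from SC by 0.03 (SE 0.08, adjusted p = 0.936).

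Over all 16 arrays the ATPases as a class varied little. The median SD within groups was 0.07 log2 over the 6 ATPases, 0.14 over all members and 0.16 over all genes. With BICC1_3 replicate 1, BICC1_1 replicate 3 and BICC1_2 replicate 3 left out, the core shared this low spread. The medians were then 0.055 for the ATPases, 0.057 for the core, 0.058 for the core chaperones and 0.074 for all members. A second probe of the ATPase Psmc5 differed from the SC mean by 0.54 on BICC1_3 replicate 1, where the tested probe differed by -0.04. Psmc2, an ATPase of the ring, read 13.62, 13.61, 13.56 and 13.69 with BICC1_1, 13.60, 13.58, 13.63 and 13.56 with BICC1_2, 13.64, 13.59, 13.62 and 13.66 on the arrays labelled BICC1_3, and 13.53, 13.60, 13.53 and 13.54 in SC. It read high in all 3 siRNA groups and overlapped SC only through SC replicate 2. The mean differed from SC by 0.07 (SE 0.05, 95% interval -0.03 to 0.16, adjusted p = 0.836). Psmc6, another ATPase, was chosen after its values were seen: it read 5.59 to 6.55 over the 16 arrays, with an SD within groups of 0.26.

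Among the assembly chaperones, Psmg2, which pairs with Psmg1 to build the alpha ring, had the lowest unadjusted p of any member. It read 10.05, 9.96, 9.93 and 9.98 with BICC1_1, 9.93, 9.90, 9.87 and 9.97 with BICC1_2, 9.62, 9.82, 9.92 and 9.75 on the arrays labelled BICC1_3, and 9.92, 9.97, 10.05 and 10.02 in SC. The arrays labelled BICC1_3 all read below the SC arrays, though the nearest readings of both groups round to 9.92. The difference was -0.21 (SE 0.07, unadjusted p = 0.00729, adjusted p = 0.414 in limma), and -0.16 without replicate 1 (adjusted p = 0.597). A second Psmg2 probe gave -0.26 there, and -0.12 with BICC1_1 and -0.09 with BICC1_2. With BICC1_2 the difference was -0.07 (adjusted p = 1.00) and for the mean of the 3 siRNAs -0.10 (adjusted p = 0.799). Against the arrays labelled BICC1_3 it was 0.20 higher with BICC1_1 (adjusted p = 0.662) and 0.14 higher with BICC1_2 (adjusted p = 0.619).

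A plainer measure is whether 2 groups overlap at all. On the arrays labelled BICC1_3 against SC, 2 members did not, Psmg2 and the core beta subunit Psmb3, both lower, which is 4.76% of 42 beside a background of 3.53% lower and 6.59% in either direction. Psmb3 read 12.52, 13.29, 13.24 and 13.30 there and 13.37, 13.35, 13.32 and 13.34 in SC, a difference of -0.26 (adjusted p = 0.569) that was -0.07 without replicate 1. It was named after its values were seen. With BICC1_1 against the arrays labelled BICC1_3, 2 members were higher without overlap, Psmb9 and Psmg2 (background 1.65% higher, 2.79% in either direction). No member was without overlap with BICC1_1 against SC (background 6.35%), BICC1_2 against SC (6.60%), the 3 siRNAs together against SC (0.356%), BICC1_1 against BICC1_2 (4.56%) or BICC1_2 against BICC1_3 (3.84%).

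The other activators gave no call. Psme3, the nuclear activator, read 11.32, 11.40, 11.52 and 11.30 with BICC1_1, 11.31, 11.20, 11.29 and 11.19 with BICC1_2, 11.64, 11.22, 11.10 and 11.47 on the arrays labelled BICC1_3, and 11.20, 11.22, 11.33 and 11.22 in SC. With BICC1_1 its arrays read at the top of the SC range or above it, a difference of 0.14 (SE 0.10, adjusted p = 0.924). Psme4, named after its values were seen, differed from SC by 0.01 with BICC1_1 and -0.02 with BICC1_2. On the arrays labelled BICC1_3 and for the mean of the 3 siRNAs it differed by -0.01 and -0.01. A second, dimmer Psme4 probe, detected on 11 arrays, gave 0.29, 0.38, 0.65 and 0.44 in the same comparisons. It did not stand for the gene in the test. Psmc3ip, a member by its name alone, read 9.68, 9.76, 9.43 and 9.63 with BICC1_1, 9.50, 9.70, 9.68 and 9.49 with BICC1_2, 8.77, 9.56, 9.57 and 9.60 on the arrays labelled BICC1_3, and 9.68, 9.60, 9.53 and 9.61 in SC. Its lowest reading, 8.77, is on the same array as those of most core subunits. The readings of 9.43 with BICC1_1 and 9.50 and 9.49 with BICC1_2 also lay below every SC array.

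The remaining genes that ranked among the 3 lowest unadjusted p-values of a comparison did not pass the test either. Psmc3ip was 0.25 higher with BICC1_1 than on the arrays labelled BICC1_3 (SE 0.15, adjusted p = 0.868), and 0.05 higher without replicate 1. Psma2, an alpha subunit, differed from SC by 0.09 with BICC1_2 (SE 0.09, adjusted p = 1.00). Psmb2, a beta subunit with no cutting site, was 0.19 higher with BICC1_1 than on the arrays labelled BICC1_3 (SE 0.10, adjusted p = 0.852), and 0.06 higher without replicate 1. Psmd9, a chaperone of the base, was 0.23 higher with BICC1_2 than on the arrays labelled BICC1_3 (SE 0.10, adjusted p = 0.595), and 0.12 higher without replicate 1. Psme3 and Psmd2 were 0.14 and 0.15 higher with BICC1_1 than with BICC1_2 (adjusted p = 0.973 and 0.985), and Psmd9 differed by -0.14 there (adjusted p = 0.990). Psmd2 differed by -0.27 between BICC1_2 and the arrays labelled BICC1_3 (adjusted p = 0.532).

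The readings that moved together in these genes lay not between groups but on replicate 1 of the arrays labelled BICC1_3. There 22 of 42 members had their lowest value of all 16 arrays, 52.4% beside a background of 23.4% of all genes, and 7 had their highest, 16.7% beside 23.5%. The classes differed: 11 of 12 core genes, 4 of 4 immunoproteasome genes and 3 of 3 core chaperones were lowest there, against 2 of 19 cap genes (Psmd9 and Psmd10). Of the cap genes 5 were highest there, as were both other activators. Psma4 was the core gene that did not have its lowest value there. When arrays were scaled by their medians, 8 of 19 cap genes were lowest there (42.1%, beside 25.4% of all genes) and 2 were highest. All 12 core genes and 4 of 4 immunoproteasome genes were lowest there with that scaling, so the cap counts in particular depend on the scaling. These counts describe 1 array and carry no test, and they were chosen after the values were seen, as were the genes named in the next paragraph that have not been named above.

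**Figure D3:**
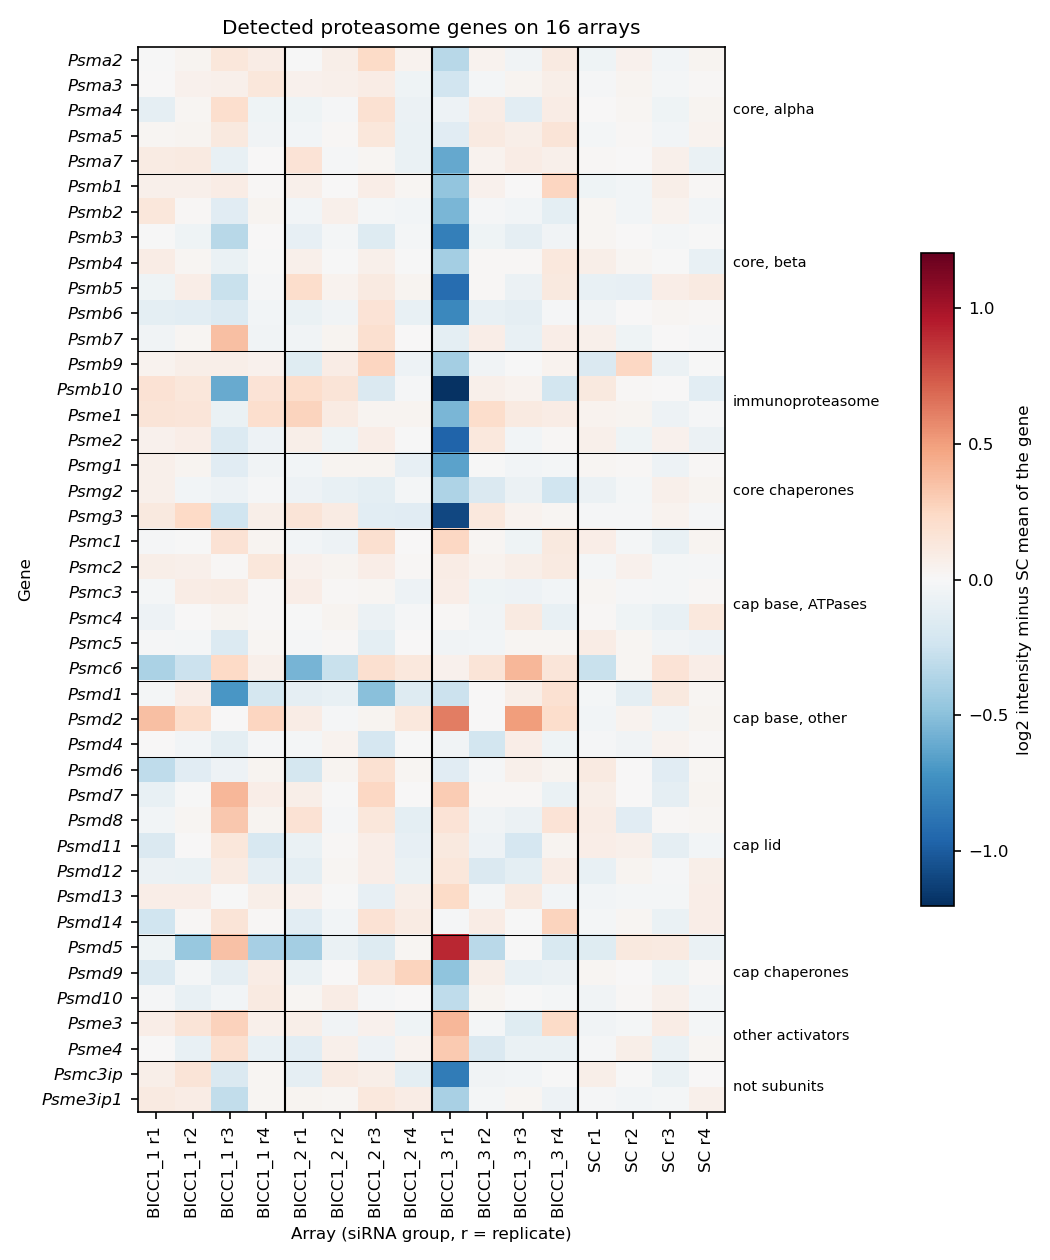
Log2 intensity minus the SC mean of the same gene for the 42 detected proteasome genes (rows, by class) on the 16 arrays (columns, by group; r is the replicate), blue for lower and red for higher. The column of BICC1_3 replicate 1 is blue through the core, immunoproteasome and core chaperone rows and mixed through the cap rows.

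Against the SC mean, the core median on that array was -0.44 log2 (range -0.91 to -0.05), with -0.55 for the 7 beta and -0.23 for the 5 alpha subunits. The immunoproteasome median was -0.75 (range -1.19 to -0.42) and the core chaperone median -0.64. The cap median was 0.08 (range -0.48 to 0.90) but -0.16 when arrays were scaled by their medians, so its direction depends on the scaling. The core lay below the cap by 0.52 on that array (difference -0.52), where the other 13 arrays spanned -0.05 to 0.05, and the gap was -0.64 with median scaling, -0.54 in the authors' deposited log2 values and -0.51 without background correction. The authors' values and those without background correction have equal quantiles on every array, as the main values do. Only median scaling is thus a different scaling between arrays. The immunoproteasome lay below the core by 0.31 on that array (difference -0.31), which was 0.01 with median scaling and -0.09 in the authors' deposited log2 values, so their order there depends on the scaling. The members furthest down were Psmb10 at 43.8% of the SC mean, the core chaperone Psmg3 at 46.7%, Psme2 at 51.3% and Psmb5 at 53.1%. The furthest up was Psmd5, a chaperone of the base, at 187%, followed by Psmd2 at 153% and Psme3 at 132%.

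**Figure D4:**
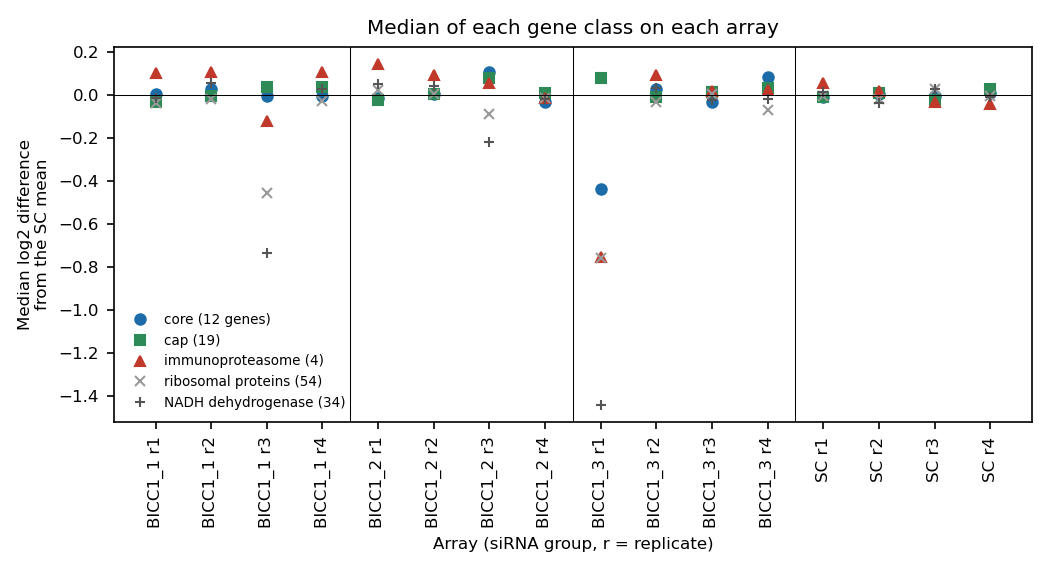
Median log2 difference from the SC mean of core, cap and immunoproteasome genes on each of the 16 arrays, with cytoplasmic ribosomal protein and NADH dehydrogenase genes beside them. On BICC1_3 replicate 1 the core (-0.44) and immunoproteasome (-0.75) medians lie far below their values on the other arrays. The ribosomal protein (-0.76) and NADH dehydrogenase (-1.44) medians are low there as well, and the cap median is 0.08 (-0.16 with median scaling). On BICC1_1 replicate 3 the NADH dehydrogenase median is -0.74 beside a core median of -0.01. That core median joins beta subunits at -0.14 and alpha subunits at 0.12 (-0.02 with median scaling).

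Other gene families moved on that array too. The median of 54 cytoplasmic ribosomal protein genes was -0.76 and that of 34 NADH dehydrogenase genes -1.44. On BICC1_1 replicate 3 these medians were -0.45 and -0.74, beside a core median of -0.01, a cap median of 0.04 and an immunoproteasome median of -0.12. The core median there joined members that went both ways, with -0.14 for the beta subunits and 0.12 for the alpha subunits, the alpha value being -0.02 with median scaling. The core chaperones had -0.13, or -0.01 with median scaling, which moved the median of all genes on that array to 0.10. Leaving BICC1_3 replicate 1 aside, 14 of 42 members had their lowest value of the other 15 arrays on BICC1_1 replicate 3, 33.3% beside a background of 20.2%. They were 5 of 12 core genes (Psma7, Psmb2, Psmb3, Psmb5 and Psmb6), 3 of 4 immunoproteasome genes (Psmb10, Psme1 and Psme2), 2 of 3 core chaperones (Psmg1 and Psmg3), 2 of 19 cap genes (Psmc5 and Psmd1), and both Psmc3ip and Psme3ip1. Of these 14, all but Psmc5 and Psmd1 were also lowest of all 16 on BICC1_3 replicate 1. Psmb10 differed there from the SC mean by -0.60, Psmb3 by -0.33, Psmb5 by -0.27 and Psmg3 by -0.24, while Psmb7 differed by 0.36. On BICC1_2 replicate 3 the ribosomal and NADH dehydrogenase medians were -0.09 and -0.22 and the core and cap medians 0.11 and 0.08. Within the core, Psmb10's constitutive counterpart Psmb7 showed how far probes of 1 gene can differ: its 3 probes gave -0.12, -0.22 and -0.71 on BICC1_3 replicate 1. Some cap genes had probes of opposite sign on that array, so the cap counts depend on the probe too. These were Psmd12 (0.14 and -0.10), Psmd11 (0.12 and -0.17), Psmc5 (-0.04 and 0.54) and Psmd10 (-0.30, -0.27 and 0.07). The other cap genes with several kept probes, Psmd2, Psmd6, Psmd7 and Psmd9, had probes of 1 sign there. The part of array or RNA quality in these values was not tested.

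The length of the gene also went with the reading on that array. The 8 members that span fewer than 4000 bases of genome (Psmb4, Psmb5, Psmb6, Psmb10, Psmc3ip, Psme1, Psme2 and Psmg3) had a median difference from the SC mean of -0.87 (range -1.19 to -0.40). The other 34, which include all 19 cap genes, had a median of -0.05 (range -0.82 to 0.90). Across the 42 members the Spearman correlation of span with the difference was 0.41, and across 8828 genes with a span it was 0.30. Genes are not independent replicates, and all points share that array. With the mean log2 intensity the correlation was 0.06 over the members. The part of gene length in the difference between core and cap was not tested.

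**Figure D5:**
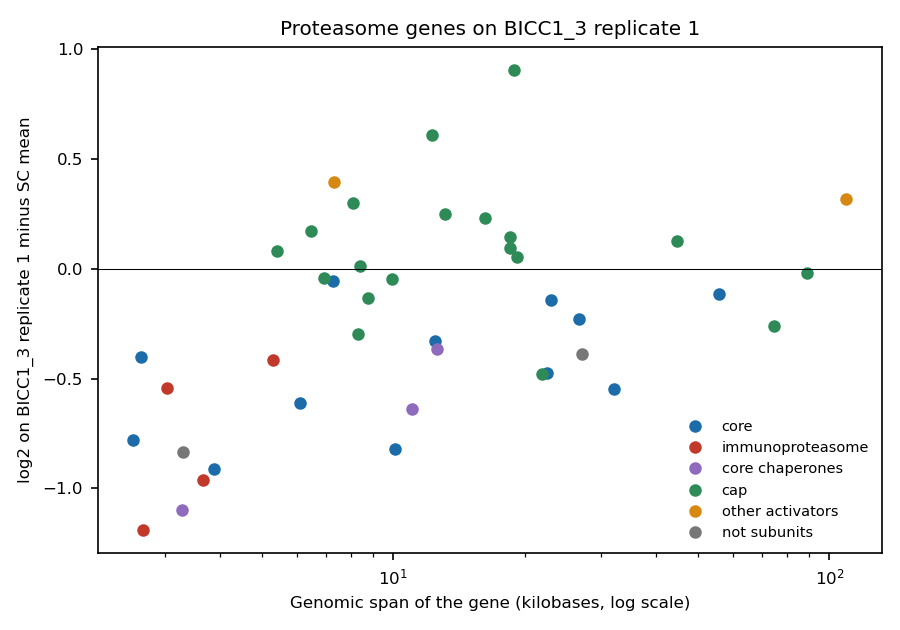
Log2 intensity on BICC1_3 replicate 1 minus the SC mean (vertical axis) against the genomic span of the gene in kilobases (horizontal log axis) for the 42 detected proteasome genes, coloured by class. The members under 4 kilobases lie between -1.19 and -0.40, and the longer genes, all 19 cap genes among them, spread from -0.82 to 0.90.

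Members also differed in how much they varied within groups. Psmb10 had the largest SD within groups (0.37 log2), then Psmd5 (0.35) and Psmg3 (0.32). Without the 3 arrays that stood apart, the median SD was 0.07 for all members and 0.11 for all genes, 0.06 for the core, 0.09 for the cap and 0.09 for the immunoproteasome genes. Psmd5 read 7.91, 7.51, 8.31 and 7.56 with BICC1_1, 7.55, 7.88, 7.81 and 7.99 with BICC1_2, 8.87, 7.64, 7.96 and 7.78 on the arrays labelled BICC1_3, and 7.82, 8.08, 8.07 and 7.88 in SC. Its groups overlapped, although the readings of 8.87 on BICC1_3 replicate 1 and 8.31 on BICC1_1 replicate 3 lay above every SC array.

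Genes around the proteasome were counted in lists written with earlier results of these data known. For the mean of the 3 siRNAs against SC, 0 genes of each list passed the test in limma in either direction (background 0.0105%). That mean takes in the arrays labelled BICC1_3, where no fall of Bicc1 was measured, and their replicate 1 that stood apart. Of 12 detected proteasome partners 7 lay above and 5 below SC, with a median of 0.02; Sem1, a small lid subunit outside the Psm names, differed by -0.16 (adjusted p = 0.876) and the ubiquitin protease Usp14 by 0.13 (adjusted p = 0.833). Of 16 genes of ubiquitin supply and delivery 9 lay above SC (median 0.01), with the autophagy receptor Nbr1 at 0.27 and the chaperone Bag6 at 0.12 (adjusted p = 0.838 and 0.853). Of 15 antioxidant target genes 13 lay below SC (median -0.05), with thioredoxin Txn1 at -0.22 and its reductase Txnrd1 at -0.21 (adjusted p = 0.864 and 0.749). By group, 13 lay below SC with BICC1_1 (median -0.14), 11 with BICC1_2 (-0.04) and 7 on the arrays labelled BICC1_3 (0.01). Of 11 heat-shock genes 7 lay below (median -0.01), with Hspe1 at -0.27 and Hspa1a at -0.18 (adjusted p = 0.856 and 0.729).

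The lists next to the immunoproteasome were set beside it array by array. Of 10 antigen presentation genes 6 lay above SC (median 0.07), with the peptide transporter Tap2 at 0.21 and the chaperone Calr at 0.23 (adjusted p = 0.736 and 0.844). Split by siRNA, 10 of 10 lay above SC with BICC1_1 (median 0.11), where 49.4% of all genes lay below SC. With BICC1_2 and on the arrays labelled BICC1_3 it was 5 of 10 each (medians 0.002 and 0.005). Of 17 interferon-response genes 10 lay below (median -0.01), with Irgm1 at -0.34 and Isg15 at -0.33 (adjusted p = 0.761 and 0.868). On BICC1_1 replicate 3 the interferon median was 0.68 above the SC mean and the antigen presentation median 0.26, while the immunoproteasome median was -0.12. On BICC1_3 replicate 1 the interferon and antigen presentation medians were -0.27 and 0.05 beside an immunoproteasome median of -0.75. Within SC the interferon median spanned -0.22 to 0.33 and the immunoproteasome median -0.04 to 0.06. Macrophages carry much immunoproteasome, and the median of 17 macrophage markers was 0.29 on BICC1_1 replicate 3 and -0.29 on BICC1_3 replicate 1, where SC spanned -0.12 to 0.07. Their part in the immunoproteasome values was not tested. Of 12 lymphocyte markers only Cd3e was detected (0.01 for the mean of the 3 siRNAs against SC).

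Markers of the cells in the dish were counted for the same mean. Of 17 macrophage markers 12 lay above SC (median 0.04), with Mrc1 at 0.25 and Coro1a at 0.22 (adjusted p = 0.736 and 0.777). By siRNA their median was 0.18 with BICC1_1 (14 of 17 above SC), 0.02 with BICC1_2 and -0.04 with BICC1_3. Of 5 endothelial markers 3 lay below (median -0.07), with Ramp2 at -0.22 and Esam at -0.22 (adjusted p = 0.789 and 0.794). Of 8 osteoblast markers 5 lay below (median -0.04), with the cadherin Cdh11 at 0.19 and the collagen chain Col1a2 at -0.15 (adjusted p = 0.789 and 0.800). By siRNA their median was -0.17 with BICC1_1 (6 of 8 below SC), 0.07 with BICC1_2 and 0.07 with BICC1_3. Array by array the osteoblast median was -0.20 to -0.13 with BICC1_1, against -0.04 to 0.06 in SC, and its part in the proteasome values was not tested. Of the ribosomal protein genes 46 of 54 lay below SC (median -0.13) and of the NADH dehydrogenase genes 29 of 34 (median -0.21), which without replicate 1 of BICC1_3 were -0.05 and -0.08. Each of these counts of genes past the test was 0.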

How the data were processed

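RNA of 16 samples in 4 groups of 4, grouped by their titles, was read on Illumina bead arrays. The authors deposited a table of probe intensity on a linear scale, not normalised, and beside each a detection score, which per the file headers is a p-value but is near 1 for bright probes, so 1 minus the score was used as the detection p. The authors also deposited log2 values with equal quantiles on every array, ranked within each array as the intensity (Spearman correlation 1), whose transform is not given in the sources used here. The submitters' processing notes name GenomeStudio.

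With limma 3.58.1 in R 4.3.3, intensities were background-corrected from the detection p, given an offset of 16, quantile-normalised and put on log2. The offset shrinks differences of dim probes such as Psmb9 and Psmc6. Probes with detection p under 0.05 on at least 4 arrays were kept (12802 of 25697), the brightest stood for each gene, and 9560 genes or unnamed probes were tested. A single fit over 4 group means gave 7 comparisons, Benjamini-Hochberg adjusted over all tested. The fit was tested on simulated data. The number of arrays limits the precision. Named with values were the immunoproteasome genes, their counterparts Psmb5, Psmb6 and Psmb7, members past the test, the 3 lowest unadjusted p-values of each comparison, Psmd14 and Psmc3ip (Psmf1, in the same rule, had no probe paired with it), and in other lists the 2 largest differences. Members and lists were chosen with earlier results of these data known. Alternatives were median scaling, the authors' log2 values, no background correction, no filter, detection on all arrays, the mean of probes, array weights, an intensity trend, the replicate block, separate fits and arrays left out. Promoters came from RefSeq (GRCm38.p6).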

Additional observations from a re-analysis of the deposited data

Results flagged for a closer look

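Within 84 sets of 4 arrays (named genes and class medians by group), a reading lay far from the other 3 by Dixon's criterion in 11, and 6 of the 11 were on replicate 1 of the arrays labelled BICC1_3. The criterion flags about 1 in 20 sets by chance where sets are independent. These sets share arrays and genes, and some genes were named for a low p-value, so the count of 11 cannot be set against that share. On that array Psme1 read 10.25 (the other 3 arrays 10.88 to 11.01), Psme2 7.90 (8.82 to 8.98), Psmb6 11.83 (12.50 to 12.59), Psmc3ip 8.77 (9.56 to 9.60) and Bicc1 10.70 (10.33 to 10.39), and the immunoproteasome median was -0.75 from the SC mean (0.02 to 0.10). On BICC1_1 replicate 3 Psmb10 read 9.24 (9.98 to 10.02), Psmb7 13.07 (12.67 to 12.73) and the immunoproteasome median was -0.12 (0.10 to 0.11). On BICC1_2 replicate 3 Psmd1 read 8.58 (8.93 to 8.99). In SC, Psme3 read 11.33 on replicate 3 (11.20 to 11.22).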

How the results depend on the processing

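The count of members past the test was 0 in all 7 comparisons under every alternative run. The replicate block left it at 0 as well. Same-numbered arrays of different groups deviated together at -0.59 to 0.61 (median -0.03), against -0.51 to 0.70 (median 0.02) for other numbers. Such overlapping ranges cannot decide whether replicate numbers pair the samples. Separate fits were not run for the mean of the 3 siRNAs. Without BICC1_3 replicate 1 the core and immunoproteasome medians of that group were 0.03 and 0.01, against -0.06 and -0.16 with it. With median scaling the cap median was 0.031 with BICC1_1, 0.052 with BICC1_2 and -0.039 on the arrays labelled BICC1_3, and with the mean of all kept probes it was 0.051 there. Leaving out 1 array at a time moved that cap median between -0.00197 and 0.042. The cause was not tested. For the mean of the 3 siRNAs, where no member passed the test, some small differences changed sign. Psmb9 was 0.027 with median scaling, and Psmb7 -0.0086 with the mean of probes. With array weights Psmb9, Psmb10, Psme2, Psmb5 and Psmc3ip were 0.016, 0.050, 0.014, 0.021 and 0.0022. Without the 3 arrays that stood apart they were 0.0024, 0.079, 0.021, 0.040 and 0.0039, and Psmb7 was -0.0016. Without the first 2 of those arrays (BICC1_3 replicate 1 and BICC1_1 replicate 3) they were 0.027, 0.054, 0.027, 0.041 and 0.014. With 1 array left out at a time, Psmb9 ranged from -0.063 to 0.076, Psme2 from -0.11 to 0.011 and Psmb5 from -0.10 to 0.019. The fall of Bicc1 with BICC1_1 was in the same direction throughout but missed the adjusted threshold in 12 of the alternatives, with p between 0.0507 and 0.224. Signal over background limits Psma1, Psma6 and Psmb8, which were not detected.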
